A study of Rattus norvegicus with 6 samples.

Results

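To examine how transcription factors of glial fate and of neural progenitors differed between C6 cells with and without AQP1 overexpression, 10 genes were chosen by name. They were Olig1, Nkx2-2, Sox2, Sox4, Sox9, Id1, Id2, Id3, Zeb1 and Zeb2, taken by the symbol that follows the gene identifier. The count tables list 8 of them among 12121 genes, and Sox4 and Sox9 were not analysed here. C6 is an established line grown from a rat glioma, and AQP1 lets water pass the cell membrane. The RNA-seq libraries numbered 3 for C6 cells that overexpress Aqp1 (C6-AQP1) and 3 for C6 cells without overexpression (C6 control). According to the methods, AQP1 was placed behind the CMV promoter of a pCDH vector that also carries copGFP and puromycin resistance. The sources used here do not tell if the C6-AQP1 line was a single clone, nor if the control cells that were sequenced had received an empty vector. Nor do they tell if replicates were separate cultures, and p-values then cover only the spread among the libraries, possibly of technical origin.

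Olig1 and its neighbour Olig2 encode basic helix-loop-helix (bHLH) factors that drive cells toward the oligodendrocyte lineage, and the homeodomain factor Nkx2-2 acts in the same lineage. Sox2 maintains neural stem cells. The inhibitor of DNA binding (ID) proteins carry a helix-loop-helix domain without a DNA-binding region. They hold bHLH partners such as the E proteins away from DNA, and their genes are classic targets of bone morphogenetic protein (BMP) signalling. Zeb1 and Zeb2 are zinc finger repressors that bind E-boxes, are known from epithelial-mesenchymal transition, and are also active in neural progenitors and glia.

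The values given here are RSEM expected counts, rounded, scaled by the TMM method and given as normalized CPM, a share of the scaled library total, and all tests are edgeR's quasi-likelihood test with Benjamini-Hochberg adjustment over all 12121 genes. Genes with an adjusted p under 0.05 are said to have risen or fallen. SE is short for the standard error on the log2 scale. Library totals ranged from 19054251 to 52725877 counts, and in both groups replicate 1 had the lowest total. Aqp1 itself had 1052 to 1064 normalized CPM in the C6-AQP1 libraries and 347 to 352 in the controls, a log2 fold change of 1.60 (SE 0.02 and adjusted p = 5.8e-25). Over all genes, 40.8% rose and 40.7% fell, and the marker counts are to be read beside these shares. Of the astroglial markers, 6 of 10 are among the genes analysed and all 6 rose, with a median log2 fold change of 1.14. Of the oligodendrocyte lineage markers, 8 of 9 are, and 7 rose, with a median of 0.60 over the 8. Cnp and Cspg4 rose by only 0.14 and 0.07, and Mbp, at 0.18, neither rose nor fell. Of 8 microglial markers 1 was analysed, Tmem119, which fell with a log2 fold change of -0.59. Of 7 endothelial markers 2 were, and Tek rose with 1.66 while Flt1 fell with -1.13. All 3 of 8 fibroblast and mural markers analysed rose, with log2 fold changes of 2.60 for Col1a1, 0.71 for Pdgfra (also an oligodendrocyte lineage marker) and 0.35 for Pdgfrb. In the neuronal list 5 of 8 were, of which 3 rose (Syt1, Snap25 and Map2), while Tubb3 and Nefl neither rose nor fell. Map2 had a log2 fold change of 1.63. Syt1 and Snap25 had 6.11 and 2.87, but from only 5 to 9 and 4 to 19 counts in the control libraries. The part of these marker changes in the results that follow was not tested. In bulk RNA, fewer cells of a type and less RNA per cell cannot be told apart.

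All 8 factors differed between the groups, 6 of them higher and 2 lower in C6-AQP1 cells. Olig1, Zeb2, Id2, Zeb1, Sox2 and Id1 rose, and Nkx2-2 and Id3 fell. Such a count says little by itself, because 81.5% of all genes passed the same threshold, 40.8% as higher and 40.7% as lower. The sizes separated the factors more clearly. A fold change above 2, the threshold of the methods, was passed by 14.1% of all genes, 9.74% upward and 4.35% downward, and by 2 of the 8 factors, Olig1 and Zeb2. For all 8 the libraries of the groups did not overlap, which held for 82.5% of all genes, 41.3% in each direction. The median log2 fold change of the 8 factors was 0.76, beside 0.00 over all genes. The factors were chosen with earlier results of these data known, so these medians are a description only.

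**Figure D1:**
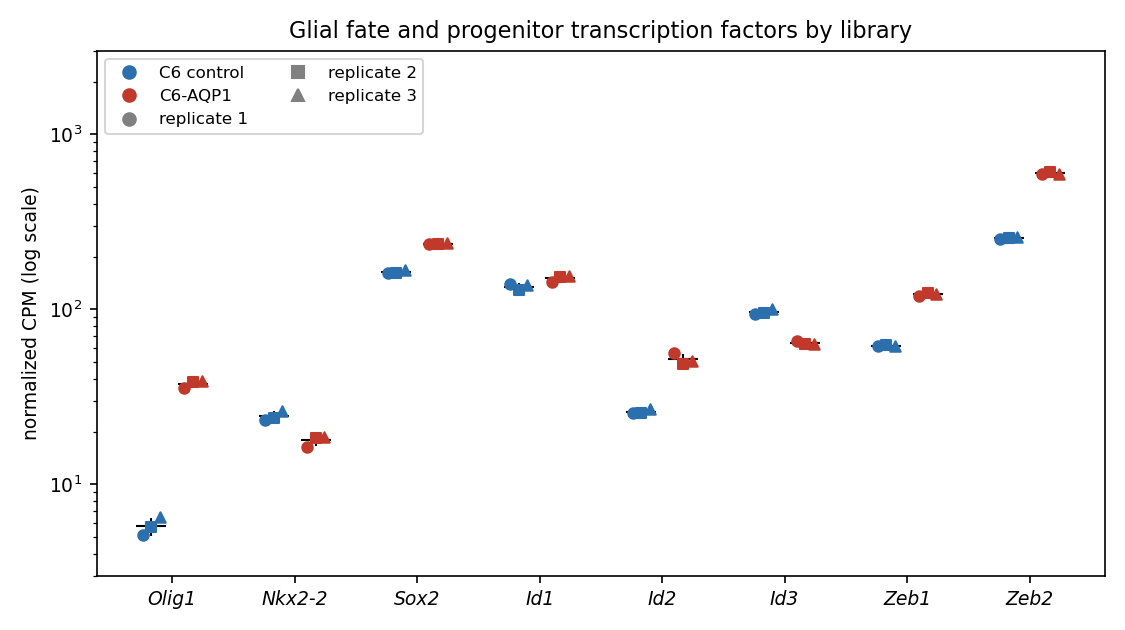
Normalized CPM of the 8 factors on a log axis, with a point for each library (blue C6 control, red C6-AQP1; circle, square and triangle for replicates 1, 2 and 3) and black bars for the mean and SD of 3 libraries. The groups do not overlap for any factor, and they lie farthest apart for Olig1 and closest for Id1.

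Olig1 (ENSRNOG00000028648) showed the largest difference of the 8. It had 35.5, 38.1 and 38.8 normalized CPM in C6-AQP1 replicates 1, 2 and 3, and 5.12, 5.66 and 6.47 in the C6 control replicates. Every C6-AQP1 library therefore lay far above every control library. The log2 fold change was 2.68 (SE 0.07, edgeR adjusted p = 5.7e-19), a 6.42-fold rise that was larger than the change of 98.2% of all genes. These levels rest on 114 to 331 counts in the control libraries and on 693 to 1641 in the C6-AQP1 libraries.

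Nkx2-2 (ENSRNOG00000012728) moved the other way. Its level was 16.4, 18.5 and 18.5 normalized CPM in the C6-AQP1 replicates and 23.3, 24.0 and 26.3 in the controls. The highest C6-AQP1 library stayed below the lowest control library, although the gap was smaller than for Olig1. The log2 fold change was -0.46 (SE 0.06, edgeR adjusted p = 6.4e-07), so that C6 control cells had 1.37-fold more, and 52.5% of all genes changed less. Olig2, the close relative of Olig1 and its direct neighbour in the rat genome, rose from 6.84 ± 0.316 to 12.9 ± 0.782 normalized CPM (SD, n = 3), with a log2 fold change of 0.93. The ratio of Olig1 to Nkx2-2 counts within a library does not depend on the scaling. On a log2 scale it was 1.11, 1.05 and 1.07 in the C6-AQP1 replicates and -2.19, -2.08 and -2.02 in the controls, and the groups differed by 3.17. The 2 oligodendrocyte lineage factors therefore changed their counts relative to each other 9.01-fold.

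Sox2 (ENSRNOG00000012199), the stem cell factor, rose moderately. It had 235, 236 and 239 normalized CPM in the C6-AQP1 replicates and 161, 161 and 166 in the controls. The libraries of each group lay close together and the groups did not overlap. The log2 fold change was 0.54 (SE 0.02, edgeR adjusted p = 2.7e-15), or 1.45-fold, which 59.8% of all genes did not reach. Of the other SOX genes, 6 of 16 were among the genes analysed, of which 5 rose and 1 fell, with a median log2 fold change of 0.90. The rises of Sox5, Sox8, Sox13 and Sox6 had log2 fold changes of 1.15, 1.08, 0.95 and 0.86. Sox5, Sox6 and Sox13 are SoxD factors without a transactivation domain of their own. Sox10, a defining factor of the oligodendrocyte lineage, rose with a log2 fold change of 0.49 (SE 0.04, edgeR adjusted p = 6.2e-05). The fall was that of Sox12, at -0.20, and it lost its call with DESeq2, with library totals, and without C6-AQP1 replicate 2 or C6 control replicate 2 or 3.

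The ID genes did not move together. Id2 rose close to 2-fold, Id1 by little, and Id3 fell. The promoters of these 3 genes are shown because the genes share a family but not a direction. They are 250 bases upstream of the start site in RefSeq (build GRCr8, written 5′ to 3′ along the gene), with E-boxes (CANNTG, the site of bHLH factors) in capitals.

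Id1, chr3:161671314-161671563, plus strand: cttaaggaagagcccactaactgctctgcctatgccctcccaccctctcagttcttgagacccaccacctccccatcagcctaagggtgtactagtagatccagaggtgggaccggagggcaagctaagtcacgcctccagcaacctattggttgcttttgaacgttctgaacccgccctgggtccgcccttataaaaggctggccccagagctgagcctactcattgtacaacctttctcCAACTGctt

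Id2, chr6:47470996-47471245, minus strand: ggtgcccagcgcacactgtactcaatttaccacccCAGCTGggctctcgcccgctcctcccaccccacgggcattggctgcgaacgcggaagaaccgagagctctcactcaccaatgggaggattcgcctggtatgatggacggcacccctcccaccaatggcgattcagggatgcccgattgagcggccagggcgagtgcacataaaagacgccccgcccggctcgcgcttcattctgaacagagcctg

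Id3, chr5:153656041-153656290, plus strand: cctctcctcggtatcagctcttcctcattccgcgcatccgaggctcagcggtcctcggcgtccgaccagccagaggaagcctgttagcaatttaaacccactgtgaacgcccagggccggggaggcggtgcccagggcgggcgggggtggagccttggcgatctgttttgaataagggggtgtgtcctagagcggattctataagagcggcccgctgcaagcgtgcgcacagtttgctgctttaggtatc

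Id1 and Id2 each held 1 E-box in this window and Id3 none, while 65.5% of all 33469 RefSeq promoters of this length held at least 1. The GC-rich SMAD motif GGCGCC, searched on both strands like all motifs here, was in none of the 3, and 8.69% of all promoters held it. The counts were aligned to rn6, so these sequences come from another build of the rat genome. A match is a description of letters and not of binding.

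For Id2 (ENSRNOG00000007237), normalized CPM were 56.3, 48.9 and 50.6 in the C6-AQP1 replicates and 25.6, 25.6 and 26.7 in the controls. The shallower C6-AQP1 replicate 1 was the highest, but each of the 3 lay well above the controls. Id2 had a log2 fold change of 0.99 (SE 0.05, edgeR adjusted p = 8.3e-14), just short of 2-fold, and 84.3% of all genes changed less. It passed 2-fold under 7 of 16 alternative settings, and its log2 fold change ranged from 0.93 without replicate 1 of both groups to 1.04 with library totals.

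Id1 (ENSRNOG00000021750) had 144, 152 and 155 normalized CPM in the C6-AQP1 replicates and 139, 128 and 137 in the controls. The groups came close, since the lowest C6-AQP1 library and the highest control library differed by less than the SD within either group (5.80 and 5.82). The log2 fold change was 0.16 (SE 0.03, edgeR adjusted p = 3.2e-04), a rise of 1.12-fold, and only 20.1% of all genes changed less.

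Id3 (ENSRNOG00000026124) fell from 93.8, 95.7 and 100.1 normalized CPM in the control replicates to 65.4, 63.2 and 63.3 in the C6-AQP1 replicates. The groups lay clearly apart. Its log2 fold change was -0.60 (SE 0.03, edgeR adjusted p = 1.4e-13), so that C6 control cells had 1.52-fold more. Id4, the other gene of the family, went from 134 ± 1.95 to 415 ± 14.1 normalized CPM (SD, n = 3), with a log2 fold change of 1.63 that exceeded those of Id1, Id2 and Id3.

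Within a library, the log2 ratio of Id3 to Id2 counts was 0.22, 0.37 and 0.32 in the C6-AQP1 replicates and 1.88, 1.90 and 1.90 in the controls. The ratio thus fell 3.01-fold, with no overlap. For Id1 to Id2 it was 1.35, 1.63 and 1.61 in the C6-AQP1 replicates and 2.44, 2.33 and 2.36 in the controls, 1.79-fold lower in C6-AQP1 cells. The counts of Id1 and Id3 relative to Id2 were therefore lower in every C6-AQP1 library. A ratio within a library shows unequal change and not which gene changed.

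**Figure D2:**
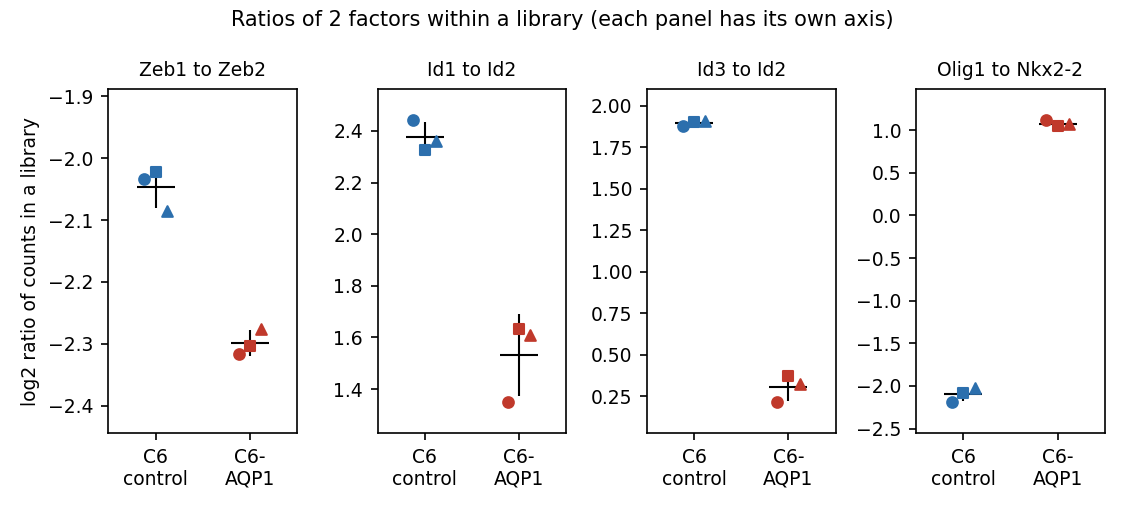
Log2 ratio of the counts of 2 factors in the same library, with a panel and its own axis for each ratio, a point for each library (circle, square and triangle for replicates 1, 2 and 3) and bars for the mean and SD of 3 libraries. The groups do not overlap in any panel; Zeb1 to Zeb2 differed by -0.25 and Olig1 to Nkx2-2 by 3.17.

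ID proteins act through their bHLH partners. Among E proteins and other bHLH factors, leaving out Id4, 14 of 27 genes were analysed, of which 10 rose and 4 fell, with a median log2 fold change of 0.91. The E proteins themselves went different ways. Tcf4 rose from 46.9 ± 0.832 to 100.5 ± 1.48 normalized CPM (SD, n = 3), with a log2 fold change of 1.10. Tcf12 rose with 0.35, and Tcf3 fell with -0.43 (adjusted p = 4.1e-07 from edgeR). Of the bHLH repressors downstream of Notch and related genes, Hey1 and Hes1 had log2 fold changes of 3.38 and 0.93, Hey1 from 18 to 81 counts in the control libraries. Atoh8 had 2.01 and Bhlhe41, a repressor tied to the circadian clock, 1.55. Besides Tcf3, the falls were those of Hes6, Twist1 and Bhlhe40, with log2 fold changes of -0.72, -0.66 and -0.10.

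Of BMP and SMAD genes, some of which act upstream of the ID genes, 20 of 31 were analysed. In this list 14 rose, 4 fell and 2 were not called, with a median log2 fold change of 0.25, beside 0.76 for the 8 factors. None of the rises passed 2-fold. The largest were those of the ligand Gdf11, the type I receptor Acvr1 and the decoy receptor Bambi, with log2 fold changes of 0.89, 0.68 and 0.66. Smad6, an inhibitory SMAD, rose from 6.45 to 8.71 normalized CPM, a log2 fold change of 0.43. Smad1 fell with -0.14, and Smad5, at -0.02, was not called. Of the ligands Bmp2 and Bmp7, Bmp2 fell with -0.16 and Bmp7, at -0.17, was not called. Fstl1 fell with -0.18. Fst, the secreted activin antagonist follistatin, fell with a log2 fold change of -2.48 (SE 0.11, edgeR adjusted p = 7.4e-15).

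Zeb1 and Zeb2 rose together. Their promoters are shown for this reason, with E-boxes in capitals, 250 bases upstream of the start in RefSeq (build GRCr8).

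Zeb1, chr17:56810654-56810903, minus strand: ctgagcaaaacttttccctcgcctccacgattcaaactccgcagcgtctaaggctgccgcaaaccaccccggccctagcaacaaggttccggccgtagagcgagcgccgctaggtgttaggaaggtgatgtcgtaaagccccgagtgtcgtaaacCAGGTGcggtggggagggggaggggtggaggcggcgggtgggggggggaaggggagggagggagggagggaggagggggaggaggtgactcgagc

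Zeb2, chr3:49754324-49754573, minus strand: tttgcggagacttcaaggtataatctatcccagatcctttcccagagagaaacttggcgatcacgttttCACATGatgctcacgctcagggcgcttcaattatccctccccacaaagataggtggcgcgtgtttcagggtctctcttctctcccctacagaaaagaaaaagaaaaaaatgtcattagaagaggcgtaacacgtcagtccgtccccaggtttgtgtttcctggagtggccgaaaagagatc

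Each of the 2 held 1 E-box. That of Zeb1 was CAGGTG, the reverse complement of the E2-box CACCTG that ZEB proteins prefer and itself a form of CANNTG. It was found in 1 of the 7 promoters of these factors in RefSeq and in 15.9% of all. The window of Zeb2 had CACATG. In the 7 promoters together, 5 held an E-box, and none held GGCGCC or the SOX motif AACAAT, which 10.3% of all promoters had.

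Zeb2 (ENSRNOG00000004677) had 593, 609 and 593 normalized CPM in the C6-AQP1 replicates and 251, 254 and 260 in the controls. Its libraries were tightly grouped and far apart between groups. The log2 fold change was 1.23 (SE 0.02, edgeR adjusted p = 2.9e-22), a 2.34-fold rise, and 89.9% of all genes changed less. Zeb1 (ENSRNOG00000017863) had 119, 123 and 122 normalized CPM in the C6-AQP1 replicates and 61.4, 62.5 and 61.2 in the controls. Again no library of a group came near the other group. For Zeb1 the log2 fold change was 0.98 (SE 0.03, edgeR adjusted p = 3.6e-18), or 1.97-fold, and it passed 2-fold under 4 of 16 alternatives. The log2 ratio of Zeb1 to Zeb2 counts within a library was -2.32, -2.30 and -2.28 in the C6-AQP1 replicates and -2.03, -2.02 and -2.08 in the controls. Zeb2 therefore rose more than Zeb1, by 1.19-fold in the ratio.

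The list of ZEB partners and epithelial-mesenchymal genes went both ways, with 7 rises and 6 falls among 15 of 33 genes analysed, and 2 that did not pass the test. With upper-quartile scaling, library totals, DESeq2 or thinning 4 of the list fell. The markers of fibroblasts and mural cells given above rose in the same libraries as Zeb1 and Zeb2, and their part was not tested. Fn1, the matrix protein fibronectin, and Tjp1, a tight junction scaffold, had log2 fold changes of 0.88 and 0.83, and the ligand Tgfb2 had 1.20. The ligands Tgfb1 and Tgfb3 fell instead, with -0.59 and -0.09, and the receptor Tgfbr1 with -0.07. Ctbp1 and Snai2 fell with -0.49 and -0.80, Snai2 from only 27 to 91 counts in the control libraries. Ctbp2, at -0.003, was not called. Cdh2, the neural and mesenchymal cadherin, fell from 599 ± 8.92 to 351 ± 5.26 normalized CPM (SD, n = 3), with a log2 fold change of -0.77. Cdh11, another mesenchymal cadherin, was counted 863 times in C6-AQP1 cells and 1 time in the control cells. After scaling this was a ratio of 1047, with a 95% exact interval for counting error alone from 187 to 41417. The authors kept genes with a mean TPM above 1 in a group. With 1 control count, Cdh11 could pass this filter only through C6-AQP1 cells, so a rise was fixed in advance. Its direction is therefore not set against that of Cdh2. Cdh1, the epithelial cadherin repressed by ZEB proteins, was not analysed here.

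**Figure D3:**
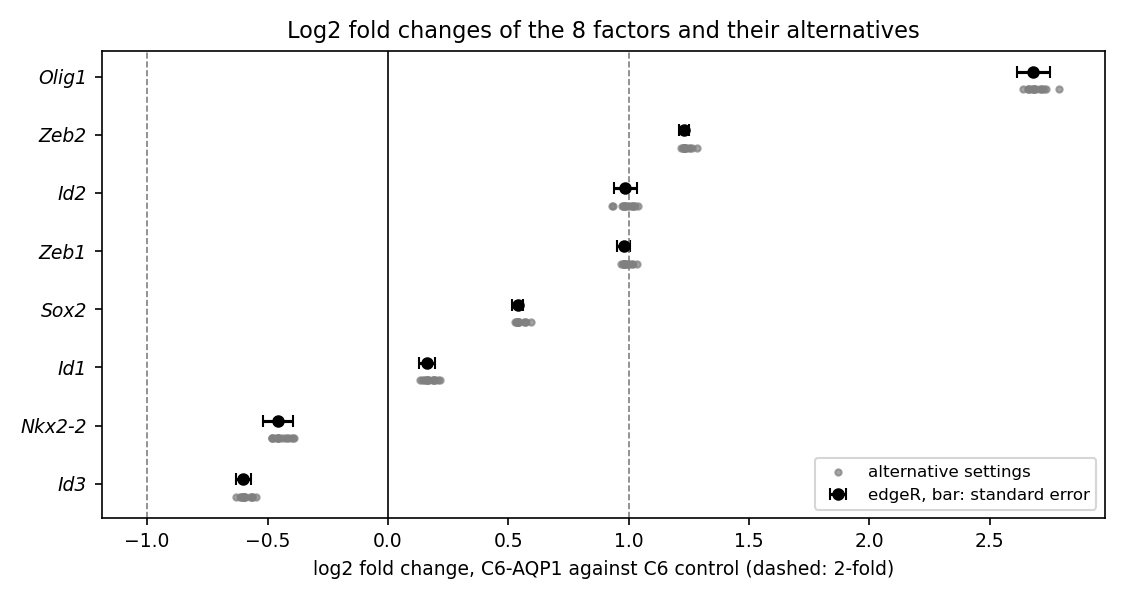
Log2 fold changes of the 8 factors between C6-AQP1 and C6 control cells (black, bars: standard error from edgeR), with 16 alternative settings in grey and 2-fold marked by dashed lines. All 16 alternatives kept the direction for each factor, and Id2 and Zeb1 lie at the 2-fold line with 0.99 and 0.98.

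Lineage genes around the 8 factors mostly rose. In oligodendrocyte lineage genes, 14 of 26 were analysed, of which 11 rose, none fell and 3 were not called, with a median log2 fold change of 0.55. Ptprz1 and Bcas1, both expressed in immature oligodendrocytes, had log2 fold changes of 1.40 and 1.37, and Fa2h, a myelin lipid enzyme, had 0.92. The 3 not called were Mbp, Tmem98 and Gpr17, at 0.18, -0.02 and -0.26, Gpr17 with only 5 to 38 counts in a library. Astrocyte lineage factors counted 16 rises and 3 falls among 20 of 27, with a median of 0.66. Nfia and Nfib, factors of gliogenesis, had log2 fold changes of 0.70 and 0.76. Atf3, Hopx and the Hedgehog effectors Gli2 and Gli1 had 1.38, 1.31, 1.21 and 1.18.

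Neural progenitor genes had 13 rises and 4 falls among 17 of 27, with a median log2 fold change of 0.38. Here Mycn, Msi1 and Notch1 rose with 1.69, 1.09 and 1.08. Nes rose by less, with 0.26. Hmga2, a chromatin protein of fetal stem cells, fell from 77.2 to 24.1 normalized CPM, a log2 fold change of -1.67. The other falls were those of Itga6, Bmi1 and Msi2, at -0.46, -0.30 and -0.14. The list of cartilage and glial genes linked to Sox9 had 11 of 20 genes analysed, and all 11 rose, with a median of 1.13. A gene scarce in control cells could pass the authors' expression filter through C6-AQP1 cells alone, which favours a rise. The uniform direction therefore says less for such genes. With at least 50 counts in every library, 7 were called higher and 0 lower. Gfap, the astrocyte intermediate filament, led the list with 3.57. The cartilage collagens Col9a2, Col11a2 and Col9a3 had log2 fold changes of 2.37, 1.85 and 1.64. Col9a2 and Col9a3 had only 21 to 66 and 31 to 87 counts in the control libraries. Sox9 itself was not analysed here, so its level cannot be set beside them.

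**Figure D4:**
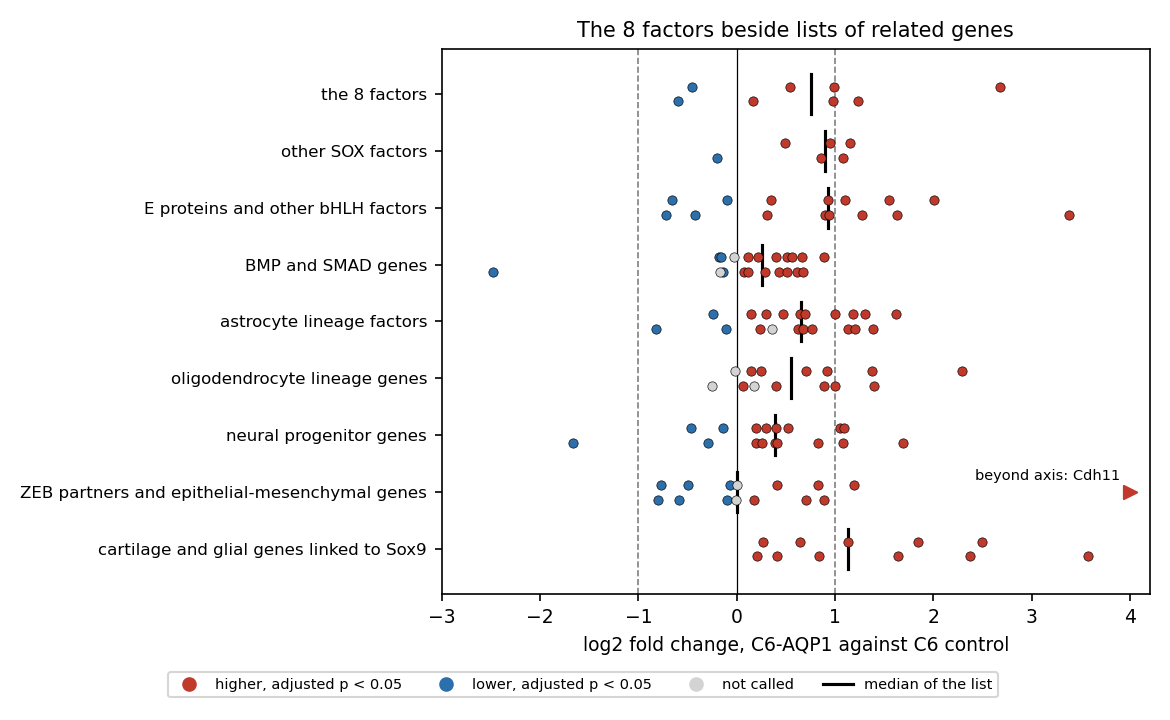
Log2 fold changes of the 8 factors and of 8 lists of related genes in C6-AQP1 against C6 control cells, with a point for each gene (red higher, blue lower, grey not called at an adjusted p of 0.05) and a black bar for the median. The medians run from about 0 for ZEB partners and epithelial-mesenchymal genes to 1.13 for genes linked to Sox9, and Cdh11 lies beyond the axis. The list of E proteins and other bHLH factors is drawn with Id4.

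The genes whose profile over the 6 libraries came closest to that of Olig1 were Trpm3, Slitrk5 and Tdrd12, with a root mean square difference of centred log2 CPM of 0.04, 0.07 and 0.08 over 10963 genes compared. For Id3 they were Nudt5, Mcrs1 and Rtcd1, with 0.01, 0.02 and 0.02. With 2 groups of 3 libraries, such likeness mostly reflects a similar difference between the groups, and the log2 fold changes of the 3 genes near Olig1 were 2.67, 2.65 and 2.75.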

How the data were processed

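Transcripts of 3 C6-AQP1 and 3 C6 control libraries, made from amplified cDNA per the labels, were sequenced. The authors used FastQC (0.11.2), Trimmomatic (0.36), STAR (2.5.1b) with rat genome rn6 and RSEM (1.2.29), with an annotation that these sources do not name, and kept genes with a mean TPM above 1 in a group. They deposited expected counts per gene, not normalized, of which 11.1% were not whole. These estimated counts were rounded and tested with edgeR 4.0.16 under R 4.3.3 (TMM, robust quasi-likelihood test, no covariates). DESeq2 1.42.0 and limma 3.58.1 (voom) were alternatives, and the steps were tested on simulated data. Standard errors come from the log2 fold change and its test statistic. Replicates differed by more than sampling noise (chi-square per degree of freedom 2.15 to 4.31), and each library counted as a replicate. This does not tell separate cultures from technical replicates. The coefficient of variation between replicates that edgeR estimated over all genes was 2.97%. The 8 factors and all lists were chosen with earlier results of these data known. The other named genes were up to 4 per list with the largest change and 50 or more counts in each library of the higher group, partners fixed by name, and the 3 nearest profiles. A gene that this rule selects is not reported here. RSEM divides reads of near-identical copies. RefSeq (GRCr8) places a long noncoding RNA across 4 of the 8 factors (Sox2, Id1, Zeb1 and Zeb2), and no source says that strand was used in counting.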

Additional observations from a re-analysis of the deposited data

How the results depend on the processing

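Over 16 alternatives (other scaling, tools, filters, thinning, a replicate block and left-out libraries), all 128 values of the 8 factors kept their direction and their call by edgeR, DESeq2 or limma-voom. The number of factors past 2-fold went from 2 to 4 with upper-quartile scaling, with library totals, with at least 50 counts in every library and after thinning to the smallest total, since Id2 and Zeb1 lie at the threshold; it was 2 to 3 when a library was left out. With library totals the median log2 fold change of all genes was 0.05. The fall of Sox12, the only lower call of the other SOX genes, was lost (0 called) with library totals and with DESeq2, and the count was 0 to 1 when a library was left out. With at least 50 counts in every library, which tests fewer genes, 1060 instead of 1707 genes passed 2-fold, lower calls were 2 instead of 4 for BMP and SMAD genes, 1 instead of 3 for astrocyte lineage factors and 3 instead of 6 for ZEB partners and epithelial-mesenchymal genes (also 4 with upper-quartile scaling, library totals, DESeq2 and thinning, and 4 to 6 when a library was left out), and higher calls were 7 instead of 11 for genes linked to Sox9. The difference of the log2 ratio of Zeb1 to Zeb2 was -0.22 after thinning, beside -0.25. The sources used here do not tell if same-numbered replicates share a batch, and the main test did not pair them. Their deviations from the group means correlated by 0.17, -0.05 and 0.19. The values for numbers 1 and 3 were the highest of all pairs, but not every library correlated best with its own number. C6-AQP1 replicate 2 did so with C6 control replicate 3 (0.11). A shared batch was not tested. With the replicate block 9982 genes were called, beside 9878, and 2 factors passed 2-fold. Outlying libraries were not sought in groups of 3. Olig1 in the control libraries, with 114 to 331 counts, has the least depth of the 8 factors.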

Other observations

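Genes next to the 8 factors in the RefSeq order of rat protein-coding genes (GRCr8) were looked up after the values of the factors were seen. Of the flanking genes, 10 were analysed, of which 6 differed in the same direction as their factor, 3 in the opposite direction and 1 did not pass the test. Over all genes 40.8% were called higher and 40.7% lower, so these counts are read only as a description. Olig1 lies between Olig2 and Ifnar2, a chain of the interferon receptor, and both rose less than it did, with log2 fold changes of 0.93 and 0.56. Id3 lies between Rpl11, a ribosomal protein gene that fell with a log2 fold change of -1.02, and E2f2, whose log2 fold change was 0.03 (adjusted p = 0.726 from edgeR). Dnajc19, next to Sox2, fell with -1.32 while Sox2 rose. Arhgap12 and Zfp438 on either side of Zeb1 rose with 0.70 and 0.60, against 0.98 for Zeb1, and Gtdc1 beside Zeb2 had -0.15 against 1.23.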
